A study of Homo sapiens with 4 samples.

Results

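The guanylate-binding proteins are large GTPases of the dynamin superfamily that interferons induce, and the 5 genes described here, GBP1, GBP2, GBP3, GBP4 and GBP5, were taken by name from the array annotation. They are 5 of the 19775 genes with a probe set, a short set of probes reading part of a transcript, that names that gene alone. They were read by 11 probe sets of the 54675 in the table. Expression was measured in THP-1 cells, an established human line from an acute monocytic leukaemia, on 4 Affymetrix arrays, 1 per condition and with 0 replicates. One array held cells after 24 h with platelet-like particles and another cells after 12 h with them, and the cells of both had also been treated with Pam3CSK4. The hours are those of the source labels, and the sample titles end in other numbers whose meaning is not given. A further array held cells given Pam3CSK4 without particles and the last resting cells. Pam3CSK4, a lipopeptide made by synthesis, is an agonist of TLR2 paired with TLR1. Its dose and duration and the source cells of the particles are not given in the sources used here, so time and particles cannot be told apart where the particle arrays are set against the Pam3CSK4 array.

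In human cells GBP1 assembles on the lipopolysaccharide of cytosolic Gram-negative bacteria and brings in GBP2, GBP3 and GBP4, and the coat activates caspase-4, the sensor of the non-canonical inflammasome. GBP1, GBP2 and GBP5 end in a CaaX motif, the signal for a lipid anchor, whereas GBP3 and GBP4 do not. Interferon-gamma and the type I interferons act on these genes through STAT and IRF factors, which bind the GAS and ISRE elements of promoters.

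Promoter stretches are shown first because 4 of the 5 genes were at least 2-fold higher on the Pam3CSK4 array than on the resting array, as were 4.14% of all genes counted. Of the 5 genes, 3 had an entry in the RefSeq promoter table of human build GRCh38.p14, which holds 27305 windows of 250 bases before to 50 bases after each gene's start. GBP2 and GBP5, with the largest differences of the 5 (3.09 and 2.11), had no entry there. GBP3, which had an entry, differed by 0.14 and was not among the 4. Capitals mark the ISRE core, searched on both strands as GAAA, any 2 bases and GAAA again, and each match here lies on the opposite strand to the one printed. The stretches are GBP1 at chr1:89065209-89065365, GBP3 at chr1:89022855-89023016 and GBP4 at chr1:89198937-89199092, all on the minus strand of GRCh38.p14.
GBP1: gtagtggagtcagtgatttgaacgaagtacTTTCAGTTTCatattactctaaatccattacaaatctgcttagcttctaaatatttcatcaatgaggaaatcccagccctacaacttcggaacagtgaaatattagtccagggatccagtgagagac
GBP3: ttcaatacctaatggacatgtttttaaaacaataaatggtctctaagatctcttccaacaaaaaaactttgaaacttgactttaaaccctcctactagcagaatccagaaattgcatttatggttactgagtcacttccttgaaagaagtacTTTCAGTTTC
GBP4: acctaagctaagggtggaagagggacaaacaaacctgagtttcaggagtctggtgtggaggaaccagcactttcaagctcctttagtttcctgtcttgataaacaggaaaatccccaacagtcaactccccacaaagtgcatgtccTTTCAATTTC

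The ISRE core ran from base -127 to -118 in GBP1, with the first base of the gene counted as 1, from base 3 to 12 in GBP3 and from base -4 to 6 in GBP4. GBP1 and GBP3 carried the same letters, TTTCAGTTTC, and around them 39 of 50 bases were identical without gaps, against 20 of 50 for GBP1 and GBP4. An ISRE core was present in 3.65% of all 27305 windows. The GAS motif, TTCNNNGAA, matched GBP3 alone of the 3, from base -15 to -7, and 7.88% of all windows. Only these letters were searched. A GAS element spelled otherwise would be missed, so the lack of a match does not show that GBP1 or GBP4 lacks such an element. An NF-kB site, searched on both strands by its usual degenerate motif, matched GBP4 alone, from base -45 to -36, and 5.72% of all windows. No 2 of these matches overlapped. A match describes letters in a window and is not evidence that a factor was bound there.

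Values are RMA log2 values, in which the 4 arrays share nearly 1 distribution, so a change in total RNA cannot be seen. A gene is represented by its probe set with the highest mean over the 4 arrays, and a gene was counted only where 1 or more arrays put that probe set at 6.19 or above, 6.19 being the median value of the table. That left 13410 genes, among them all 5 GBP genes. GBP1, GBP2 and GBP4 passed only through the arrays of Pam3CSK4-treated cells, so a higher value there was part of how they passed. With 1 array per condition no test was possible, and a difference of 1 on the log2 scale, 2-fold, was used to count genes. In bulk RNA a change in RNA per cell and a change in the share of cells carrying it cannot be told apart.

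The defining markers of monocytes were present. Of 9 measured monocyte genes 8 reached the filter level on each array, LYZ, the lysozyme gene of myeloid cells, at 12.98 to 13.81, and CD14 at 6.52 to 9.13. Of 9 measured markers of T, NK and B cells 5 reached it on at least 1 array. CD79A, at 7.32 to 7.53, and NCAM1, at 6.40 to 6.57, reached it on every array. CD3D lay at 6.05 to 6.37 and CD3E at 5.94 to 6.26. The 4 that did not reach it included CD2, at 5.34 to 5.53. NKG7, a granule protein gene of cytotoxic cells, lay at 9.14 to 10.02. RNA integrity was read from GAPDH, whose 3' control probes exceeded the 5' ones by 0.70 log2 at 24 h, 0.92 at 12 h, 0.59 with Pam3CSK4 and 2.16 in resting cells. The same gap for ACTB was 2.90 at 24 h, 3.17 at 12 h, 2.91 with Pam3CSK4 and 3.41 in resting cells.

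GBP2, which joins the GBP1 coat on bacteria and in human cells lowers the activity of the protease furin, differed most of the 5 on the probe sets standing for the genes. Its value was 8.80 at 24 h, 8.25 at 12 h, 8.62 with Pam3CSK4 and 5.53 in resting cells. A second probe set read 7.27 at 24 h, 7.03 at 12 h, 7.03 with Pam3CSK4 and 4.04 in resting cells. Both probe sets were high on the 3 arrays of treated cells and low on the resting array. The difference of Pam3CSK4 and resting cells was 3.09, or 8.50-fold, on the first and 2.99 on the second, both under the 3.37 of a second GBP5 probe set, and 3.09 held rank 76 of 13410 genes. Both resting values lay under the filter level, where background limits how exact a fold can be.

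GBP5, another furin antagonist, also reported to promote assembly of the NLRP3 inflammasome, came next. The probe set standing for the gene read 9.20 at 24 h, 9.21 at 12 h, 9.08 with Pam3CSK4 and 6.97 in resting cells. Its other probe set read 9.04 at 24 h, 9.22 at 12 h, 8.85 with Pam3CSK4 and 5.48 in resting cells. The 3 treated arrays lay within 0.37 of each other on either probe set, and the resting array lay below them. Pam3CSK4 minus resting was 2.11, or 4.32-fold, on the first, which was above the filter level in resting cells, and 3.37 on the second, which was not.

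GBP1, the protein that starts the coat, had 4 probe sets. The one standing for the gene read 7.48 at 24 h, 7.34 at 12 h, 7.05 with Pam3CSK4 and 5.41 in resting cells, and its Pam3CSK4 minus resting difference was 1.64, or 3.12-fold. A probe set with no suffix for related transcripts read 6.87 at 24 h, 6.46 at 12 h, 6.54 with Pam3CSK4 and 5.24 in resting cells, a difference of 1.30 between Pam3CSK4 and resting cells. Another, with the suffix _x_at, read 6.53 at 24 h, 6.60 at 12 h, 6.35 with Pam3CSK4 and 4.84 in resting cells, 2.83-fold between Pam3CSK4 and resting cells. These 3 were low in resting cells and differed little among the treated arrays. The remaining one stayed at 3.83 to 4.49 on all arrays, under the filter level, with a difference of -0.06. The suffix _x_at, and _s_at on the probe set standing for the gene, mark probes that can bind related transcripts. GBP1 and GBP3 are close paralogs, so these values of GBP1 are uncertain.

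GBP4, a member of the coat, had the smallest called difference. Its value was 6.33 at 24 h, 6.37 at 12 h, 6.33 with Pam3CSK4 and 5.14 in resting cells, and Pam3CSK4 minus resting was 1.19, or 2.28-fold. The 3 treated arrays were thus level and just above the filter. Its other probe set, under the filter on every array, read 5.30 at 24 h, 5.61 at 12 h, 5.27 with Pam3CSK4 and 5.41 in resting cells, and the Pam3CSK4 minus resting difference was -0.13. With both probe sets averaged and no filter, the GBP4 difference was 0.53, under 2-fold.

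GBP3, which takes part in caspase-4 activation on the coat, did not share the low resting value. Its single probe set read 8.95 at 24 h, 9.15 at 12 h, 8.74 with Pam3CSK4 and 8.61 in resting cells. The resting array was again the lowest, but the whole range over the 4 arrays was 0.54, against 3.27 for GBP2 and 2.25 for GBP5. Pam3CSK4 minus resting was 0.14, or 1.10-fold, at rank 3347 of 13410.

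**Figure D1:**
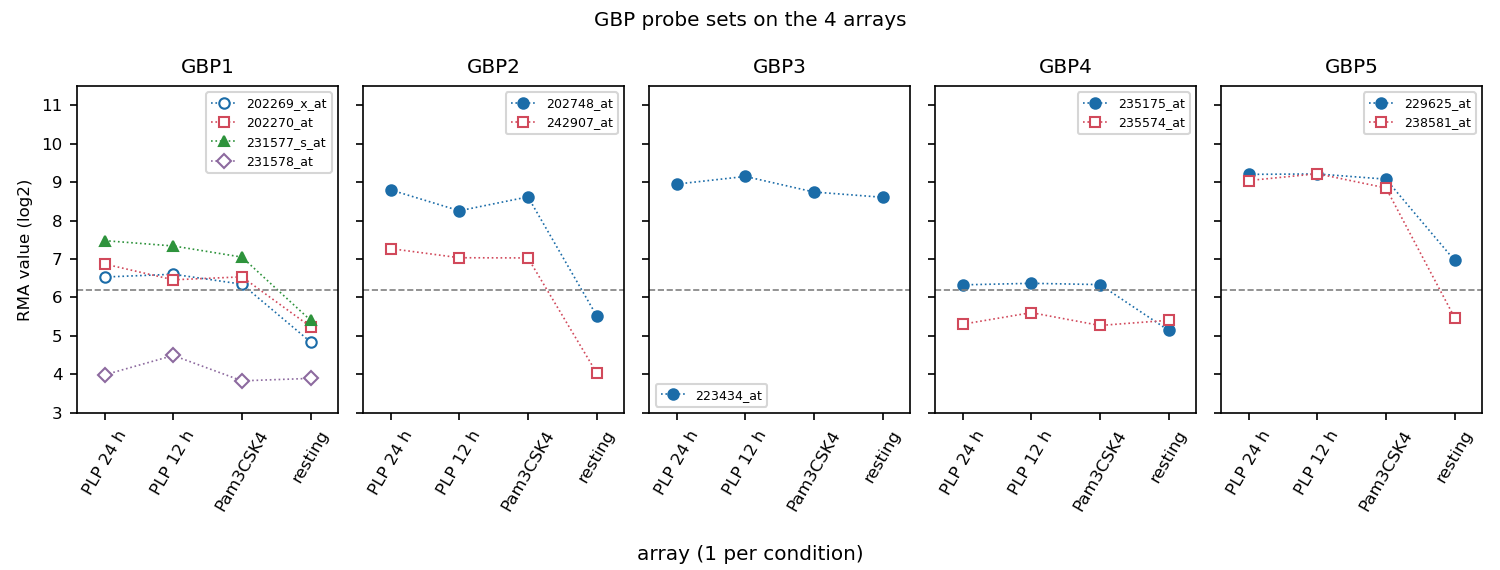
RMA values (log2, vertical axis) of the 11 GBP probe sets on the 4 arrays (horizontal axis, 1 array per condition, so no error bars); a filled symbol is the probe set standing for the gene, and the dashed line is the filter level, 6.19. GBP1, GBP2, GBP4 and GBP5 have probe sets that drop on the resting array, while GBP3 stays between 8.61 and 9.15.

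For Pam3CSK4 against resting cells, 4 of the 5 GBP genes exceeded 2-fold upward, 0 downward, and GBP3 differed less, with a median difference of 1.64 against -0.05 over all 13410 genes. The background was 4.14% of all genes at least 2-fold higher and 1.71% lower. Of the 11 probe sets 8 were at least 2-fold higher, and the other 3 were that of GBP3 and the 2 that stayed under the filter level. RNA integrity, as read by the GAPDH gap of 0.59 with Pam3CSK4 and 2.16 in resting cells, moved with this comparison, and its part in the GBP differences was not tested. ACTB differed by 0.13 and GAPDH by 0.32.

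**Figure D2:**
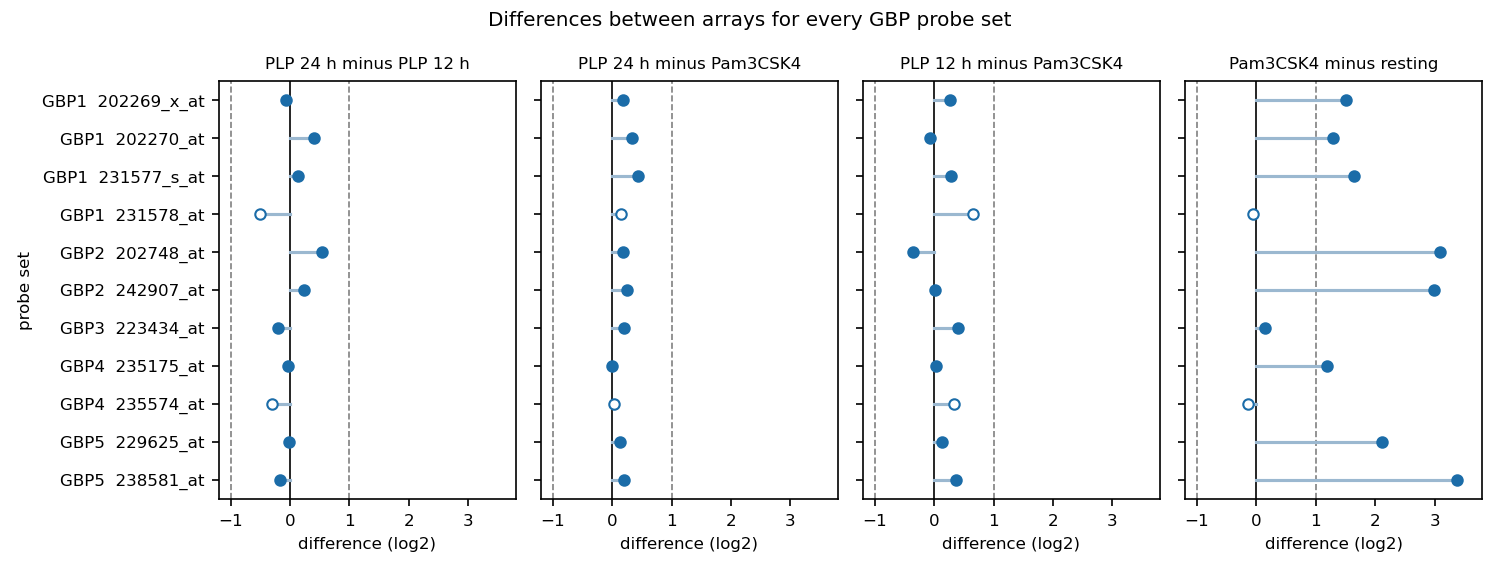
Differences (log2, horizontal axis) between single arrays for each of the 11 GBP probe sets (vertical axis) in the 4 comparisons; filled points reached the filter level on at least 1 array, and dashed lines mark 2-fold. On the right panel 8 probe sets pass 2-fold upward, and on the other 3 panels none does, the values lying between -0.50 and 0.66.

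At 12 h with the particles the GBP genes lay close to their values with Pam3CSK4 alone. Of the 5, 0 passed 2-fold in either direction, against a background of 0.41% higher and 0.35% lower, and the median difference was 0.14 against -0.05 over all genes. GBP3 led at 0.41, rank 600 of 13410, from values of 9.15 at 12 h and 8.74 with Pam3CSK4. GBP2 stood at -0.36 on one probe set and 0.01 on the other, so its lower value at 12 h was not shared between them. GBP1 stood at 0.29, but its probe sets past the filter ran from -0.08 to 0.29, with -0.08 on the only one without a suffix for related transcripts. GBP5 stood at 0.14 and 0.37 on its 2 probe sets. GBP4 stood at 0.03, and at -0.02 under cyclic loess scaling.

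After 24 h with the particles the differences from Pam3CSK4 alone were again small. Here 0 of 5 GBP genes were at least 2-fold higher, with 0.0298% of all genes, and 0 were lower, with 0% of all genes. The median was 0.18, against -0.01 over all genes. GBP1 led at 0.43, or 1.35-fold, rank 88 of 13410, and its 4 probe sets ran from 0.16 to 0.43. GBP3 stood at 0.21, GBP2 at 0.18 and 0.24 on its 2 probe sets, and GBP5 at 0.12 and 0.19. GBP4 stood at -0.01 on the probe set standing for it, and its sign turned to 0.01 under cyclic loess. Both particle comparisons share the Pam3CSK4 array, so a value of that array that was off would move both.

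Between the particle arrays, 24 h against 12 h, 0 of 5 GBP genes were at least 2-fold higher, with 0.343% of all genes, and 0 were lower, with 0.224%. GBP2 stood at 0.54 and 0.24 on its 2 probe sets, the highest gene of the 5, at rank 544. GBP1 stood at 0.14 with a range of -0.07 to 0.41 over the probe sets past the filter. GBP3 stood at -0.20, GBP5 at -0.01 and -0.18, and GBP4 at -0.04, or 0.03 under cyclic loess. The order of the conditions thus differed among members: 12 h was the highest array for GBP3 and, on the probe set standing for the gene, the lowest of the 3 treated arrays for GBP2, and without replicates neighbouring values in these orders cannot be told apart.

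Beside these small differences, the platelet and megakaryocyte markers had a median of 0.38 at 12 h and 0.11 at 24 h over 5 of 9 measured genes past the filter, relative to Pam3CSK4. The log2 values of all 9 summed to 52.2 at 24 h, 53.2 at 12 h, 51.2 with Pam3CSK4 and 52.7 in resting cells. PPBP and TUBB1, defining platelet genes, lay at 3.40 to 5.05 on all arrays, under the filter level. At 12 h against Pam3CSK4, TREML1 stood at 0.54, SELP at 0.51, GP1BA at 0.38, GP9 at 0.36 and ITGA2B at -0.04. Those 5 reached the filter level in resting cells as well, GP9 at 7.58 and TREML1 at 7.25. HBE1, an embryonic globin gene, differed by 0.85 at 12 h and 2.05 at 24 h (0.19 and 0.01 on its other probe set). The other 2 of the 3 erythroid genes past the filter differed by less than 2-fold. Of all genes 0.0298% were at least 2-fold higher at 24 h. Of 8 monocyte genes past the filter 2 were at least 2-fold lower at 12 h than with Pam3CSK4, CD14 at -1.18 and MNDA at -1.16, beside 0.35% of all genes. At 24 h 0 were lower, beside 0% of all genes. The part of particle RNA, or of these monocyte genes, in the GBP values was not tested.

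The upstream genes of the interferon pathway were read from lists. For this and the later lists, the shares of all genes at least 2-fold higher and lower were 4.14% and 1.71% with Pam3CSK4 against resting cells. Against Pam3CSK4 those shares were 0.41% and 0.35% at 12 h, and 0.0298% and 0% at 24 h. List counts of 0 at 12 h or 24 h lie close to these shares. Of 17 measured interferon ligand genes 16 stayed under the filter level on all arrays, IFNB1 at 4.82 to 5.03 and IFNG at 4.16 to 4.49. Of 21 measured receptors, kinases and transcription factors 6 were at least 2-fold higher with Pam3CSK4 than in resting cells, 0 were lower and 15 differed less, with a median of 0.43. Those 6 were IRF7 at 2.35, IRF9 at 1.95, the interferon-gamma receptor genes IFNGR1 at 1.35 and IFNGR2 at 1.32, BATF2 at 1.17 and USP18, an interferon-induced deISGylase, at 1.05. Among the 15, SOCS3 stood at -0.17 and IFNAR1 at 0.77, but other probe sets of these genes reached 2.79 and 1.04. IRF1, a factor that interferon-gamma induces and that acts on GBP genes, differed by 0.08, from 8.06 with Pam3CSK4 and 7.98 in resting cells. None of the 21 was 2-fold different at 12 h or 24 h against Pam3CSK4, the range at 12 h being -0.49 to 0.68.

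The GBP genes had a lower median difference at 12 h than genes of type I interferon responses, and their ranges overlap. Single arrays leave this contrast without a test, and the lists were chosen with earlier results of these data known. All 21 genes of type I interferon responses were at least 2-fold higher with Pam3CSK4 than in resting cells, beside 4.14% of all genes. The median was 2.40, and the largest differences were those of IFI44L at 4.96, IFI44 at 4.63, EPSTI1 at 3.94 and OAS3 at 3.77. For 6 of the 21 the resting cells gave less than the filter level. These counts rest on the probe set standing for each gene. The lowest other probe set was under 2-fold for IFIT2 (0), RIGI (0.16), OAS2 (0.32), OAS3 (0.40) and IFIH1 (0.67). At 12 h against Pam3CSK4, 4 of the 21 were at least 2-fold higher, beside 0.41% of all genes. Those 4 were IFI44L at 1.30, OAS3 at 1.23, RSAD2 at 1.01 and EPSTI1 at 2.01-fold. The median was 0.62 against 0.14 for the GBP genes. OAS3 stood at -0.02 on its other probe set and RSAD2 at 0.54 on its other one. At 24 h against 12 h, 19 of the 21 were lower in value. OAS3 (-1.26) and IFI44L (-1.11) were lower by at least 2-fold, beside 0.224% of all genes. The median was -0.39 against -0.01 for the GBP genes, and the other OAS3 probe set stood at -0.09. Between Pam3CSK4 and resting cells that probe set differed by 0.40. At 24 h against Pam3CSK4 0 of the 21 were 2-fold different, with a median of 0.14. MX1, an antiviral GTPase of the dynamin superfamily as well, had 11.46 at 24 h, 12.31 at 12 h, 11.35 with Pam3CSK4 and 7.28 in resting cells. Of the 4 related large GTPase genes past the filter, MX1 at 4.07 and MX2 at 1.66 were at least 2-fold higher with Pam3CSK4 than in resting cells, and 0 were 2-fold different at 12 h, where MX1 stood at 0.96 and MX2 at 0.88.

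The interferon-gamma-type list lay lower than the GBP genes in the comparison of Pam3CSK4 and resting cells. Past the filter were 18 genes, with a median of 0.51 against 1.64 for the GBP genes. Of the 18, 5 exceeded 2-fold upward and 0 downward, beside 4.14% and 1.71% of all genes. Those 5 were the chemokine gene CXCL10 at 4.79, the adhesion receptor gene ICAM1 at 3.70, CD274, which encodes PD-L1, at 1.45, XAF1, also in the type I list, at 1.22, and the peptide transporter gene TAP1 at 1.08. ICAM1 ranged from 0.83 to 5.16 and CD274 from 0.03 to 1.45 over their probe sets. Another 3, TAPBP, APOL3 and LAP3, lay just under 2-fold, APOL3 at 1.99-fold. Resting values of CXCL10, CD274 and APOL3 lay under the filter level. At 12 h 0 of the 18 were 2-fold different, with a median of 0.23, and at 24 h 0, with a median of 0.01. The other 5 measured genes of the list stayed under the filter level, among them the chemokine genes CXCL9 and CXCL11, which differed by 0.14 and 1.42 between Pam3CSK4 and resting cells.

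**Figure D3:**
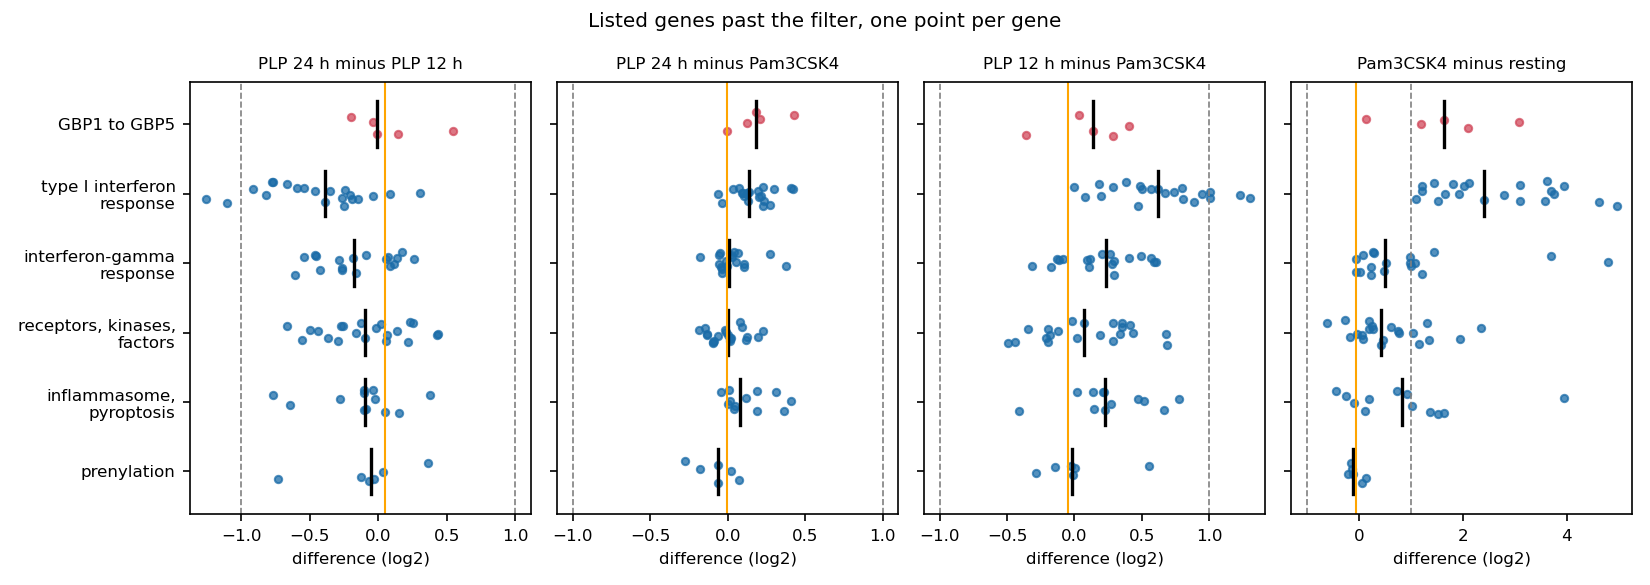
Differences (log2, horizontal axis, scaled for each panel) of listed genes past the filter, 1 point per gene, in the 4 comparisons; black bars are list medians, orange lines the median of all 13410 genes and dashed lines 2-fold, and the vertical scatter within a row has no meaning. At 12 h the type I interferon genes spread up to 1.30 with a median of 0.62, while GBP1 to GBP5 lie between -0.36 and 0.41.

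Genes that act with the GBP proteins were mixed. Of 12 inflammasome and pyroptosis genes 5 were at least 2-fold higher with Pam3CSK4 than in resting cells and 0 lower. The shares of all genes were 4.14% and 1.71%. Those 5 were IL1B at 3.96, CASP5 at 1.63, NLRC4 at 1.52 (0.21 on its other probe set), CASP1 at 1.37 and AIM2 at 1.03. Resting values of CASP5, NLRC4 and AIM2 lay under the filter level, and so did the Pam3CSK4 value of AIM2, 5.96. CASP4, the human sensor that the coat activates, differed by 0.74, and GSDMD, which encodes the pore-forming gasdermin D, by -0.43. At 12 h 0 of the 12 were 2-fold different from Pam3CSK4, with CASP4 at 0.15. Of 6 prenylation and CaaX processing genes, whose enzymes attach and trim the lipid anchor of GBP1, GBP2 and GBP5, 0 were 2-fold different in any of the 4 comparisons. Of 11 coat partners and adaptors of ubiquitin or autophagy 4 were at least 2-fold higher with Pam3CSK4, LGALS3 at 2.30, SQSTM1 at 1.79, OPTN at 1.75 and RNF213, a ligase that marks bacterial lipopolysaccharide with ubiquitin, at 1.47. Other probe sets of 3 of them lay near 0, LGALS3 ranging from 0.05 to 2.30, SQSTM1 from -0.21 to 1.79 and RNF213 from 0.01 to 1.47. PIM1, a kinase that holds GBP1 inactive, differed by 0.62.

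The 5 genes lie together on chromosome 1, with GBP7 between GBP2 and GBP4. The RefSeq order is GBP3, GBP1, GBP2, GBP7, GBP4 and GBP5, followed by the pseudogene LOC729930, GBP6 and the pseudogene GBP1P1. GBP7 had no probe set of its own, and GBP6 stayed under the filter level at 3.19 to 3.78. GBP1P1 lay at 6.09 to 6.25 and differed by -0.05 between Pam3CSK4 and resting cells. On the side of GBP3 the next genes, RBMXL1 and KYAT3, differed by -0.11 and 0.26. On the other side LRRC8B and LRRC8C, subunits of volume-regulated anion channels, differed by 0.15 and -0.37. GBP3 and GBP5, the outermost members at either end, differed by 0.14 and 2.11.

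**Figure D4:**
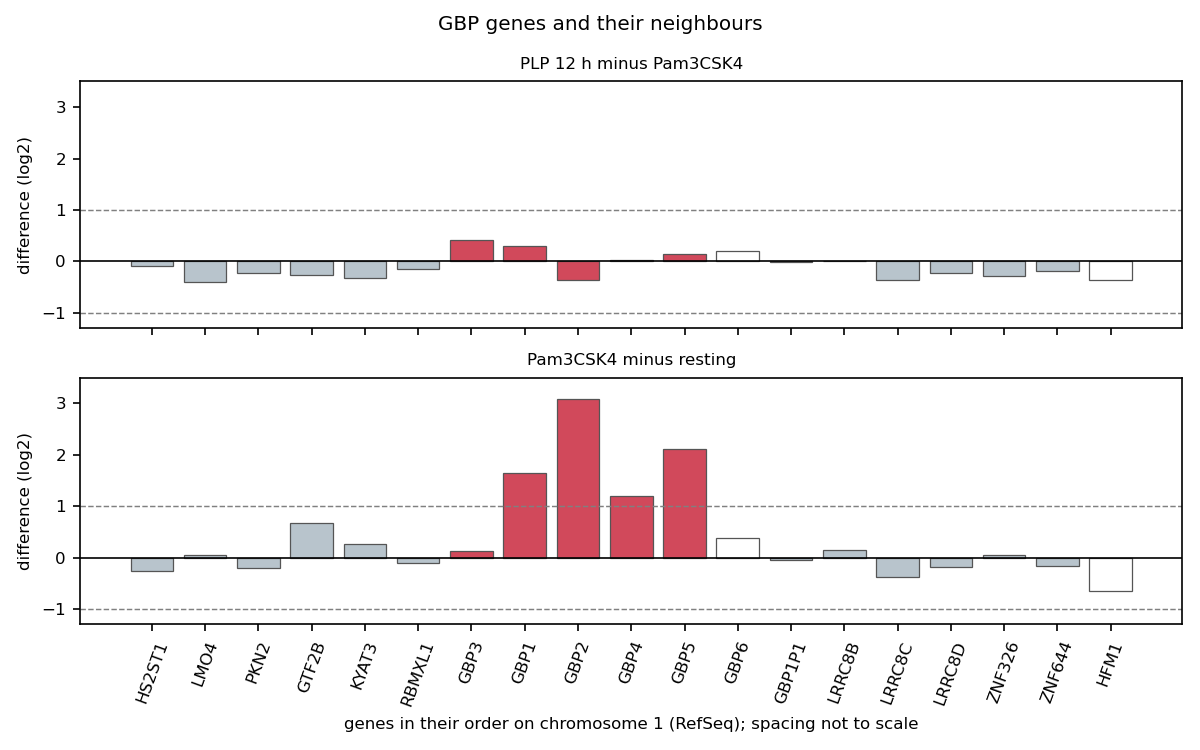
Differences (log2, vertical axis) between the 12 h and Pam3CSK4 arrays (top) and the Pam3CSK4 and resting arrays (bottom) for genes in their order along chromosome 1, spacing not to scale; red bars are the 5 members, white bars genes under the filter level and dashed lines 2-fold. In the bottom panel 4 adjacent measured genes pass 2-fold, and in the top panel none does.

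The members' profiles were compared by a measure that takes in both their size and their shape. The root mean square difference over the 4 arrays, after each gene was centred on its own mean, was smallest for GBP1 and GBP5, 0.17 log2, and largest for GBP2 and GBP3, 1.20. By the same measure, among 1368 genes with a range of at least 1 log2, the nearest to GBP1 were GPNMB (0.03), CADM1 (0.03) and GPR183 (0.04). Those nearest to GBP5 were ACVR2A (0.03), CD44 (0.03) and LACTB (0.04), and to GBP4 SIGLEC5 (0.03), RASSF2 (0.03) and RUFY3 (0.04). For GBP2 the nearest, S100A9 (0.16), NFE2L3 (0.16) and ABCA6 (0.18), were all lower at 12 h than with Pam3CSK4, by values of -0.39 to -0.43. For GBP3, whose own range of 0.54 is under the 1 log2 asked of these genes, those nearest were ABCC1, GPD2 and ATP6V1A, each at 0.17. Genes with a range as small as that of GBP3 could not be among them. The mean profile of the 5 was nearest to SMAD7 (0.02), RBM47 (0.03), DUSP6 (0.03), OSBPL11 (0.04), ALOX5AP, SLC15A3, VEGFA and CTSD (0.05 each). These likenesses rest on 4 arrays and mostly on the step between resting and treated cells.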

How the data were processed

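Total RNA of 4 THP-1 cultures was hybridised to 1 array each. The deposited log2 values were made by the authors with RMA in affy 1.28.1, per the submitters' processing notes, which subtracts background, quantile-normalises the arrays and summarises each probe set, so that differences near background come out too small. No detection calls were used, so signal over background was judged by level alone, and the number of arrays limits the precision. Groups came from the source labels, and no column was left unmapped. Genes were named from a platform annotation: a single gene for 41091 probe sets and several for 1801, with 11721 unnamed here, after 62 control probe sets were set aside. Identifiers of 41043 were found in RefSeq (GRCh38.p14), and 0 symbols were updated. Differences of log2 values were computed with Python 3.11.15, numpy 2.4.6 and pandas 2.3.3, and cyclic loess with limma 3.58.1 in R 4.3.3 (3 iterations). Counting was tested on simulated data, copies of 1 array with added noise and planted folds. That checks the counting step only and not array effects or RNA integrity. With 1 array per group there was no test. Named genes were all members and their probe sets, the listed genes at least 2-fold different (the 4 largest of long lists), MX1, IRF1, CASP4, ACTB, GAPDH and the 3 genes nearest to each GBP gene or 8 nearest to their mean. Other genes, such as CXCL9, CXCL11, GSDMD, PIM1, LYZ and the neighbouring genes, were chosen after their values were seen. A listed gene without a probe set of its own was not analysed here. The members and the lists were chosen with earlier results of these data known. The alternatives were the filter, the probe set standing for a gene, the omission of _x_at and _s_at probe sets, the scaling and the fold.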

Additional observations from a re-analysis of the deposited data

How the results depend on the processing

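The count of GBP genes at least 2-fold higher with Pam3CSK4 than in resting cells was 4, and 3 or 4 under all alternatives except the stricter filter, the 75th percentile of the table, which leaves 3 of the members and counted 2. The median of 1.64 was then 2.11. That median was 1.92 with probe sets averaged, which leaves 4 members past the filter, 1.30 without _x_at and _s_at probe sets, and, in settings chosen after seeing the data, 1.09 with probe sets averaged and no filter and 1.30 with the smallest of the differences that a gene's probe sets gave. The 12 h median of 0.14 was 0.27 averaged, and 0.03 both without _x_at and _s_at probe sets and with the smallest differences. No alternative counted a GBP gene as different in the other 3 comparisons, 1.5-fold included, though 1 GBP1 probe set, under the filter level, passed 1.5-fold at 12 h. At 3-fold 5 rather than 8 probe sets passed for Pam3CSK4. Of 96 member differences recomputed, 10 did not keep their sign, all of them in the particle comparisons, GBP1 at 12 h among them (-0.08 without _x_at and _s_at probe sets, against 0.29). Of the 10, 3 were set to 0 by construction where probe sets disagreed. GBP4 was under 2-fold, 0.53, with probe sets averaged and no filter.

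Over all genes, those different with Pam3CSK4 against resting cells were 784, 1807 at 1.5-fold and 377 at 3-fold. The 12 h count of 102 was 638 and 18 at these folds, 63 averaged and 66 averaged with no filter. The 24 h count of 4 was 23 and 2, 1 averaged and 1 at the 75th percentile. For 24 h against 12 h, 76 became 606 and 10, 43 averaged and 46 averaged with no filter. Genes of the pathway lists numbered 42 for Pam3CSK4 and 27 at 3-fold. For 12 h they numbered 4, and 22 at 1.5-fold, 0 at 3-fold and 2 averaged, with or without the filter. For 24 h against 12 h they numbered 2, and 16, 0 and 1 under the same settings. The fold alternatives differ by construction, and for the others the cause was not tested. Of the 8 genes nearest to the mean GBP profile 0 were among the 8 of highest Pearson correlation, and in the 250 bases before the start 1 of 3 promoters held the ISRE core. Depth limits could not be set for arrays without detection calls. No paired analysis was possible because each group has 1 array.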
